A study of Homo sapiens with 2 samples.

Results

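Histone H4 acetylated at lysine 5 (H4K5ac) was examined at 6 genes that handle acid and bicarbonate: the carbonic anhydrase genes CA9, CA12, CA2 and CA13, and the sodium bicarbonate cotransporter genes SLC4A4 and SLC4A7. They were chosen by RefSeq symbol out of 19974 protein-coding genes (autosomes and chromosome X). Each gene was taken with its span and 10 kb on either side, and every chromatin immunoprecipitation sequencing (ChIP-seq) peak that overlapped this window was counted. The windows held 72 of the 258195 peaks of the hypoxia library and 36 of the 120033 peaks of the normoxia library.

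Both libraries came from FaDu, a cell line grown from a human head and neck cancer. The hypoxia library was made from cells kept in 1% oxygen for 18 h and the normoxia library from cells in normoxia, whose oxygen level the labels do not state. The sample labels name H4K5ac, whereas the series design text names another histone mark, and the sample labels are followed here. The culture protocol mentions a METTL4 knockdown, which no label assigns to either library. With 1 library per condition no test of hypoxia was possible and no difference has a replicate check. Of 10 squamous marker genes, 9 carried a peak at the start in both lists and TP63 in the hypoxia list alone, against 1 of 10 genes of other lineages in both lists, 4 in the hypoxia list alone and 5 in neither. The tables used give no strand for 5 genes of each set, and for these a peak at either end was counted; all 5 marked genes of other lineages are among them. By that rule 69.3% of all genes were marked in both lists and 11.7% in hypoxia alone.

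Carbonic anhydrases interconvert carbon dioxide and water with bicarbonate and a proton. CA9 and CA12 encode membrane enzymes whose catalytic domain faces the outside of the cell, and CA2 and CA13 encode cytosolic enzymes. SLC4A4 encodes an electrogenic sodium bicarbonate cotransporter and SLC4A7 an electroneutral one; both can bring bicarbonate into the cell and so buffer acid. CA9 is a textbook target gene of the hypoxia-inducible factors (HIF), which bind DNA at sites with the core ACGTG or GCGTG, and CA12 is also known to be raised by low oxygen in tumour cells. H4K5ac is an acetyl mark found at active promoters and enhancers.

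The start site windows below, from RefSeq on GRCh38.p14 (the assembly hg38 names), are shown because they show which start sites lay under a peak and where the HIF core letters fall. Each runs from 250 bases before the start site to the 50 bases from the start site on, 5′ to 3′ in the direction of the gene. Capitals mark ACGTG and GCGTG and their reverse complements CACGT and CACGC. The sequence table used holds no window for CA2 or CA13.
CA9 start site (chr9:35673678-35673977, plus strand): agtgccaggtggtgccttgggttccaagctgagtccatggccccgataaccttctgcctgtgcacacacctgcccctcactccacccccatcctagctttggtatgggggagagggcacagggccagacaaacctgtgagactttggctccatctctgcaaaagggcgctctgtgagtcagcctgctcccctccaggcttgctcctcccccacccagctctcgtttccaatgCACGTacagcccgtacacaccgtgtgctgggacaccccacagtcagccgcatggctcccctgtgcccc
CA12 start site (chr15:63381797-63382096, minus strand): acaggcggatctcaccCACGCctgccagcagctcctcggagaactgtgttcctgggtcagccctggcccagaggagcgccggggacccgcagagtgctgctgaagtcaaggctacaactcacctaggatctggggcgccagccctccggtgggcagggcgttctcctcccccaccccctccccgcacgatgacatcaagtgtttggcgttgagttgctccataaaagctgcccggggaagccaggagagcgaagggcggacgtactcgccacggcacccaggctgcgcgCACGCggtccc
SLC4A4 outermost start site (chr4:71062410-71062709, plus strand): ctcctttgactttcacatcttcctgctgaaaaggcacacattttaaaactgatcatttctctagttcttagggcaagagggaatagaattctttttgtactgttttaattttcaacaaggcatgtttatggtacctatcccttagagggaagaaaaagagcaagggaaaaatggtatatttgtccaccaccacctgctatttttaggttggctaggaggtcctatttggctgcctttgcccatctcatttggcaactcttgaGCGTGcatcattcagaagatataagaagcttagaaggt
SLC4A4 second start site (chr4:71186515-71186814, plus strand): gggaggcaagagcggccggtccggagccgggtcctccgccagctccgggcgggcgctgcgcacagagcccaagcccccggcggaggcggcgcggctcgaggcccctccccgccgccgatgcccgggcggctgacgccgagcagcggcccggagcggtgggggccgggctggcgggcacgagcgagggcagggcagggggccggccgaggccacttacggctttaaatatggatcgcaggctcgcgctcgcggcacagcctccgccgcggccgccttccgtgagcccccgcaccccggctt
SLC4A7 outermost start site (chr3:27484335-27484634, minus strand): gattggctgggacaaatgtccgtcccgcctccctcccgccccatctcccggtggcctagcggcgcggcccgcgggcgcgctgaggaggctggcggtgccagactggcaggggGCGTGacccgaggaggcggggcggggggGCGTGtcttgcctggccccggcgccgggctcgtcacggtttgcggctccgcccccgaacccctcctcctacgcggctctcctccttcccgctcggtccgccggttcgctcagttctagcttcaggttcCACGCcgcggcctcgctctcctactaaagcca

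The CA9 window was the only 1 of the 9 RefSeq start windows of these genes to hold ACGTG, with its letters on the minus strand at positions -18 to -14 counted from 0 at the start site. Those bases lay inside a hypoxia peak and inside no normoxia peak. The CA12 window held GCGTG at 2 places, positions -234 to -230 and 39 to 43, and both lay inside a peak of each list. The SLC4A7 window held GCGTG at 3 places, of which 1 (positions 18 to 22) lay inside the start peak of each list. Neither SLC4A4 start site under a peak held a core in its window. No window held the palindrome CACGTG, which also contains ACGTG. Across 34789 distinct RefSeq start windows, 21.4% held ACGTG, 36.5% held GCGTG and 48.4% held either, so a match describes these letters and nothing more.

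CA9 carried H4K5ac at its start in hypoxia and had no normoxia peak there. The gene lies on chromosome 9 (35673928 to 35681159, plus strand). The hypoxia peak (35673476 to 35674156, 681 bp wide) had its summit 158 bp from the start site and covered all 300 bases of the window printed above. It rested on 27 reads at the summit over a local background of 5.42 reads, both derived from the authors' fold of 4.36 and p-value. The peak was thus of moderate height, with a −log10 q-value of 8.97, under the 10 that marks a strong peak here.

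A second, weaker CA9 hypoxia peak of 251 bp lay 2235 bp inside the gene, with 17 reads and a −log10 q-value of 2.40. The nearest normoxia peak lay 8200 bp from the start peak. At backgrounds within 0.5 reads of 5.42, the lowest normoxia pileup that was called held 12 reads, so, if the normoxia background at CA9 was also near 5.42 reads, a lower pileup there would not have been called. That background is not known; the normoxia peaks in the CA9 window had backgrounds of 8.53 to 13.7 reads. The CA9 window held 4 hypoxia and 3 normoxia peaks. The peaks on its low and high sides, with up to 102 reads in hypoxia and up to 65 reads in normoxia, lay at the neighbouring genes ARHGEF39 and TPM2.

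A start marked in hypoxia alone was not rare. Of 15813 genes with a known strand, 9.81% (1552) had this pattern within 1 kb of the start, while 0.904% had the reverse, 68.4% were marked in both lists and 20.9% in neither. Among the 1552 genes, the CA9 peak had a higher −log10 q-value than 85.3%, against a median of 4.88, and 227 genes had a higher one. Its distance to a normoxia peak was near the middle, with 42.1% of these genes nearer to one and a median of 10102 bp. For whole gene spans, 9.37% of all genes held a hypoxia peak and no normoxia peak, as CA9 did with 2 and 0.

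CA12 kept 4 sites of H4K5ac in both conditions and had 10 further peaks in the hypoxia list. The gene lies on chromosome 15 (63321378 to 63381846, minus strand) and its window held 14 hypoxia peaks and 4 normoxia peaks. At its start, 53 reads supported an 886 bp hypoxia peak and 33 reads a 719 bp normoxia peak, with summits 96 bp apart. All 4 normoxia peaks overlapped a hypoxia peak. Those hypoxia peaks had summits at the start and 9649, 33433 and 50279 bp into the gene.

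By reads at the summit, the tallest CA12 peak in either list was inside the gene and not at the start. It had 82 reads over 1270 bp in hypoxia (63372006 to 63373275) and 36 reads over 984 bp in normoxia (63372107 to 63373090). By fold the start peak was the higher, at 6.80 against 6.74 in hypoxia and 5.34 against 4.11 in normoxia. The summit of the internal peak lay 9649 bp from the start in hypoxia and 9149 bp in normoxia, a shift of 500 bp. This was the longest summit shift among the 20 pairs of peaks in these windows that overlapped each other and no other peak, whose median shift was 73 bp, against 61 bp over all 69577 such pairs.

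The 10 CA12 hypoxia peaks without a normoxia peak had 12 to 27 reads at their summits. Only 1 of them was strong, a 483 bp peak at the far end of the gene (63321512 to 63321994) with 26 reads, a fold of 5.38 and 11.1 as −log10 q-value. It lay 9422 bp from the nearest normoxia peak and within the spans of the long non-coding RNA genes LOC124903505 and LOC124903506. LOC124903506 (63317988 to 63344410) also holds 4 further CA12 hypoxia peaks and 1 normoxia peak, among them the shared site 50279 bp into the gene, so none of these can be assigned to CA12 alone. Another 2 flanked the shared site 50279 bp into the gene, at 1342 and 1361 bp from its normoxia peak, so that acetylation in this stretch was called as 3 hypoxia peaks and 1 normoxia peak.

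**Figure D1:**
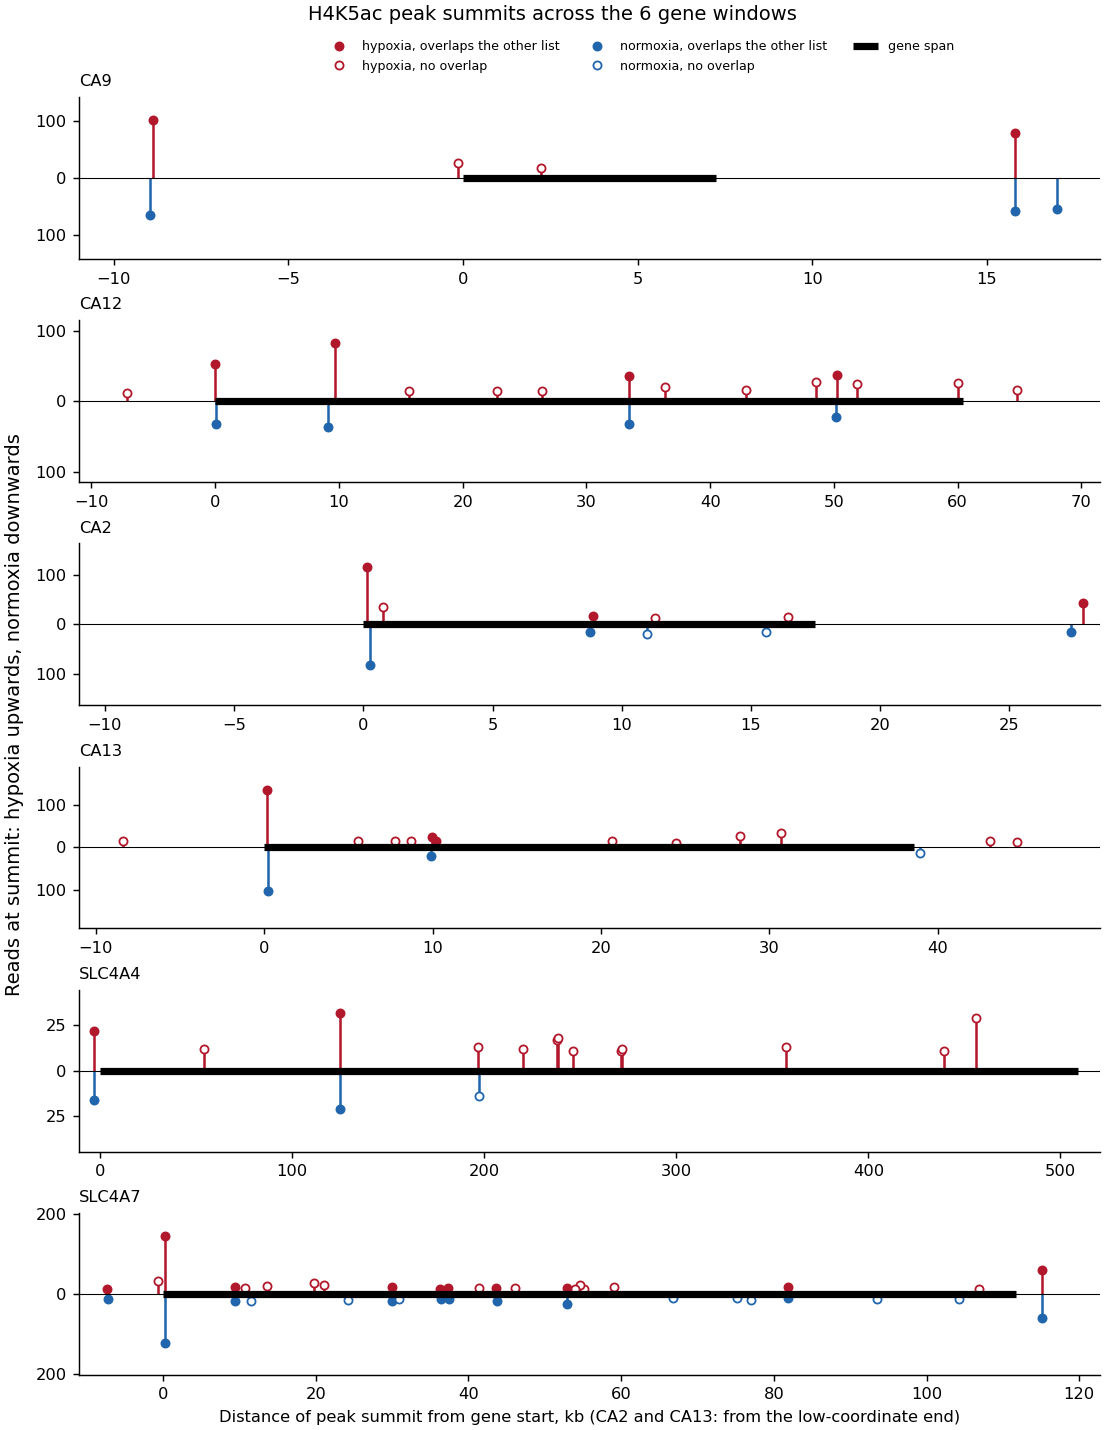
Peak summits across the 6 gene windows, with distance from the gene start in kb on the x axis and reads at the summit on the y axis, hypoxia upwards and normoxia downwards. Filled points overlap a peak of the other list, open points do not, and black bars are gene spans. The tall summits are paired between the lists, as at the CA13 start with 135 reads in hypoxia and 101 in normoxia, and the open points are mostly short.

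The cytosolic carbonic anhydrase genes CA2 and CA13, both on chromosome 8, carried tall H4K5ac peaks at the low-coordinate end in both conditions. The tables used give no strand for them, so positions are given from that end. CA2 (85464007 to 85481493) had 117 reads in a 1271 bp hypoxia peak and 82 reads in a 1267 bp normoxia peak. These peaks shared 1256 bp and their summits were 145 bp apart. They also overlap the end of the antisense RNA gene CA3-AS1 (85441806 to 85464915), so the mark there cannot be assigned to CA2 alone.

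The rest of the CA2 window was nearly even, with 5 further hypoxia and 4 further normoxia peaks. Several sites were neighbours without touching. A 222 bp hypoxia peak of 13 reads and a 291 bp normoxia peak of 19 reads were 112 bp apart. A hypoxia peak of 15 reads and a normoxia peak of 16 reads, farther along, were 543 bp apart. Peaks counted as not overlapping can thus be near neighbours at CA2. At the far edge of the window a hypoxia peak of 43 reads (610 bp) overlapped 2 normoxia peaks, of which the 1 inside the window had 16 reads.

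CA13 (85245458 to 85284073) had the tallest carbonic anhydrase start peak, with 135 reads over 1184 bp in hypoxia and 101 reads over 1302 bp in normoxia. The hypoxia peak lay entirely within the normoxia peak. Beyond it, the gene window held 12 further hypoxia peaks and 2 further normoxia peaks. A normoxia peak of 652 bp and 19 reads, whose summit lay 9923 bp into the gene from that end, was overlapped by 2 narrower hypoxia peaks of 24 and 14 reads.

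Of the other 10 CA13 hypoxia peaks, 1 was strong: 33 reads over 436 bp at 85275955 to 85276390, 7845 bp from the nearest normoxia peak, with a fold of 4.81. The remaining 9 had 11 to 27 reads. In normoxia a 251 bp peak of 12 reads, just beyond the high-coordinate end, had no hypoxia peak within 4011 bp. In all, the CA13 window held 13 hypoxia and 3 normoxia peaks.

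SLC4A4 was marked at an internal start site and not at its outermost one. The gene spans 509424 bp of chromosome 4 (71062660 to 71572083, plus strand) and RefSeq lists 5 start sites. The outermost site had no peak within 1 kb in either list. The next 2 sites (71186765 and 71187259) lay under 1 broad peak in each condition, of 1488 bp and 32 reads in hypoxia (71186432 to 71187919) and of 1556 bp and 21 reads in normoxia (71186347 to 71187902). These were the widest SLC4A4 peaks of both lists. They also overlap the high-coordinate end of the long non-coding RNA gene LOC124900712 (71183688 to 71186524), so the mark there cannot be assigned to SLC4A4 alone. The last 2 sites had no peak. With any RefSeq start site counted, a choice made after seeing the data, SLC4A4 joins the genes marked in both lists, as 71.7% of genes then were.

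The printed windows show how the base composition of these sites differed. The second SLC4A4 site had 79.0% G and C with 44 CpG dinucleotides and the outermost site 39.7% with 1, against a median of 58.7% and 14 over all windows. Over all RefSeq start windows with at least 60% G and C, 91.3% had a hypoxia peak and 82.2% a normoxia peak within 1 kb. For windows under 50% the shares were 26.6% in hypoxia and 20.2% in normoxia. Of the 9 windows of these genes, the 5 with a hypoxia peak had 62.0% to 79.0% G and C and the 4 without had 36.7% to 48.0%.

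The SLC4A4 window held 13 hypoxia peaks and 3 normoxia peaks. Of the 11 hypoxia peaks without a normoxia peak, 10 had 11 to 18 reads over a background at the hypoxia list's floor of 3.24 reads. The exception was a 607 bp peak 455901 bp into the gene (71518251 to 71518857), with 29 reads, a fold of 7.07 and 16.0 as −log10 q-value. It was nearly as tall as the 32 reads of the start peak in hypoxia, and lay 88932 bp from the nearest normoxia peak. Another 2 lie within the pseudogene LOC107986208 (71300257 to 71301179), and how reads were placed there was not tested. At 196895 bp into the gene a hypoxia peak of 13 reads and a normoxia peak of 14 reads were 3 bp apart.

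SLC4A7 carried the most peaks in both lists. The gene spans 111662 bp of chromosome 3 (27372723 to 27484384, minus strand), and its window held 22 hypoxia and 18 normoxia peaks, with 10 of each overlapping the other list. Its start peak was the tallest of all 6 genes, with 145 reads over 1095 bp in hypoxia and 124 reads over 1275 bp in normoxia. The peaks began at the start site and ran into the gene: they covered 71 bases of the printed window in hypoxia and 46 in normoxia. A separate 226 bp hypoxia peak of 33 reads lay upstream, with its summit 619 bp before the start, but its fold was 1.98 over a background of 16.1 reads.

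Inside SLC4A7, low peaks of both lists were spread along the gene. Within the gene, hypoxia peaks without a normoxia peak had 12 to 26 reads and normoxia peaks without a hypoxia peak 10 to 18 reads. The site 52901 bp into the gene was higher in normoxia. This site had 14 reads over 257 bp in hypoxia and 26 reads over 490 bp in normoxia, where it was strong. A tall peak at the far side of the window, with 60 reads in each list, lay at the neighbouring gene NEK10. The second SLC4A7 start site (27456778) had no peak in either list.

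**Figure D2:**
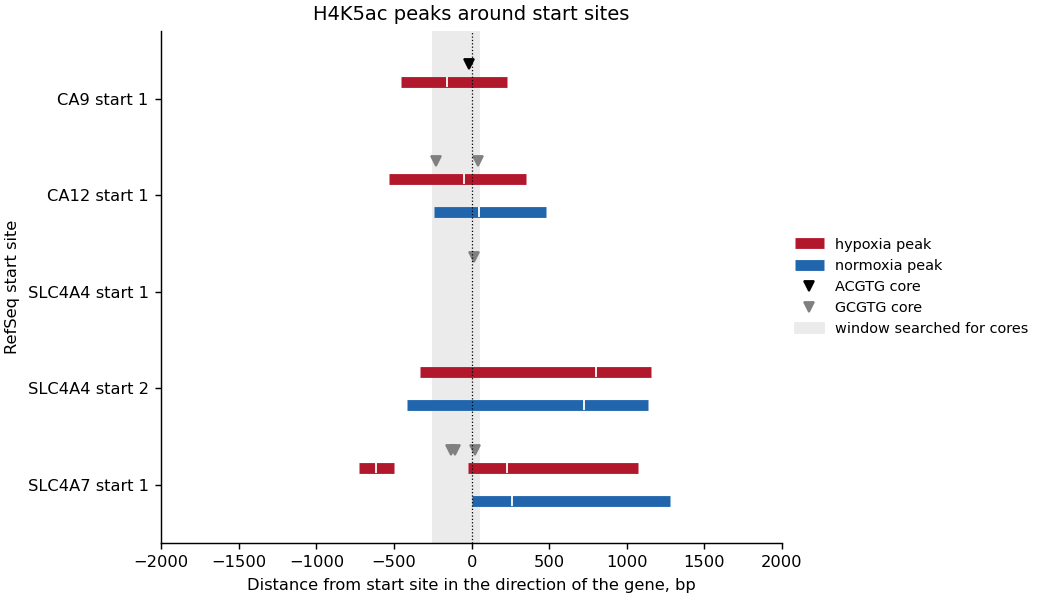
H4K5ac peaks within 2 kb of 5 RefSeq start sites, drawn as bars against the distance from the start in bp in the direction of the gene, with white ticks at summits and triangles at HIF core letters in the shaded window. CA9 has a hypoxia bar and no normoxia bar, the outermost SLC4A4 site has neither, and the other 3 sites have bars of both libraries.

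Set together, the 6 genes had 2.00 times as many hypoxia as normoxia peaks (72 and 36; 95% counting interval 1.32 to 3.07), close to the 2.15 of the whole lists. The numbers were higher in hypoxia for all 6 genes, as for 79% of all genes, while 5.86% had fewer in hypoxia. The ratios were 4.33 for CA13 and SLC4A4, 3.50 for CA12, 1.33 for CA9, 1.22 for SLC4A7 and 1.2 for CA2. The last 3 had intervals that include 1. For CA13 and SLC4A4 the interval was 1.19 to 23.7 and for CA12 1.10 to 14.6, and these include the 2.15 of the whole lists. Over all 17671 genes with a normoxia peak, the median ratio was 1.75, with quartiles of 1.25 and 2.50. For the 6030 genes with 10 or more hypoxia peaks and a normoxia peak, the median was 2.14 and the quartiles 1.67 and 2.83.

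List length bears on these numbers. With the hypoxia list limited to the 120033 peaks of lowest p-value, the 6 windows held 33 hypoxia peaks against the 36 in normoxia, a ratio of 0.917. CA12 then had 8 hypoxia and 4 normoxia peaks, SLC4A4 5 hypoxia and 3 normoxia, and CA13 4 hypoxia and 3 normoxia. CA9 had 3 of each, CA2 4 hypoxia and 5 normoxia, and SLC4A7 9 hypoxia and 18 normoxia peaks. Over all genes at equal list length, 34.6% had more hypoxia and 34.4% fewer hypoxia peaks.

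Overlap was likewise near the level of the lists. Of the 72 hypoxia peaks, 24 (33.3%; 95% exact binomial interval 22.7 to 45.4%) overlapped a normoxia peak, against 32.7% of the whole hypoxia list. Of the 36 normoxia peaks, 24 (66.7%; 49.0 to 81.4%) overlapped a hypoxia peak, against 68.7% of the whole normoxia list. All 11 strong normoxia peaks were overlapped, as were 98.3% of strong peaks in the whole normoxia list. Of 15 strong hypoxia peaks 12 were overlapped, against 86.6% in the whole hypoxia list, and the other 3 are the CA12, CA13 and SLC4A4 peaks described above.

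The median width in the 6 windows was 280.5 bp for hypoxia peaks and 279.5 bp for normoxia peaks, whereas over the whole lists it was 294 bp in hypoxia and 356 bp in normoxia. Peaks overlapping the other list had a median of 406 bp in hypoxia, against 437 bp in normoxia. Peaks without an overlap had a median of 265.5 bp in hypoxia, against 255 bp in normoxia. Over the whole lists, overlapped peaks had a median of 445 bp in each, and the others 263 bp in hypoxia and 276 bp in normoxia. The 48 hypoxia peaks without an overlap ranged from 215 to 793 bp with a median of 15 reads, and the 12 normoxia ones from 245 to 291 bp with a median of 13.5 reads. The lowest pileup called at all was 9 reads in each list. All 7 hypoxia and all 5 normoxia peaks of 1000 bp or more were overlapped, as were 95.3% of peaks this wide in the whole hypoxia list and 99.8% in the whole normoxia list.

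**Figure D3:**
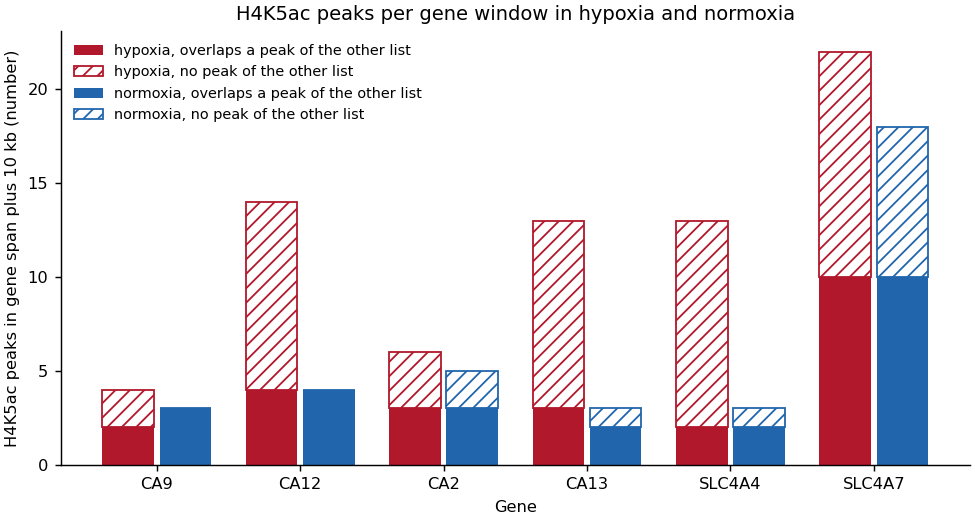
Number of H4K5ac peaks in each gene span plus 10 kb, hypoxia (red) left of normoxia (blue), filled where the peak overlaps the other list and hatched where it does not. The hatched part is largest for CA12, CA13, SLC4A4 and SLC4A7 in hypoxia, at 10, 10, 11 and 12 peaks, while SLC4A7 also has 8 hatched peaks in normoxia.

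At the 20 sites where 1 hypoxia peak met 1 normoxia peak, reads at the summit could be set side by side. The reads were higher in hypoxia at 12 sites, equal at 2 and lower at 6, with a median ratio of 1.13. Over all 69577 such pairs 72.8% were higher in hypoxia and the median ratio was 1.27. The local background of these pairs had a median ratio of 1.04. Pileups depend on library depth and fragment length, and what set the level of 1.27 was not tested. All 6 lower sites were in SLC4A7, where 3 of 10 were higher. In the other 5 genes 9 of 10 were higher and 1 was equal, with a median of 1.48.

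Single sites were rarely separable from the median of all pairs. At the start, the ratio was 1.61 for CA12 (95% counting interval 1.02 to 2.56), 1.43 for CA2 (1.07 to 1.92), 1.34 for CA13 (1.03 to 1.75) and 1.17 for SLC4A7 (0.914 to 1.5), and each interval includes 1.27. The internal SLC4A4 start had 1.52 (0.852 to 2.78). Only 2 of the 20 intervals left out 1.27: the CA12 site 9649 bp into the gene, at 2.28 (1.52 to 3.47), and the SLC4A7 site 52901 bp in, at 0.538 (0.260 to 1.07). The intervals cover counting error only, and no allowance was made for reading 20 of them. The hypoxia peak was the narrower at 12 of 20 sites, as at 56.3% of all pairs.

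**Figure D4:**
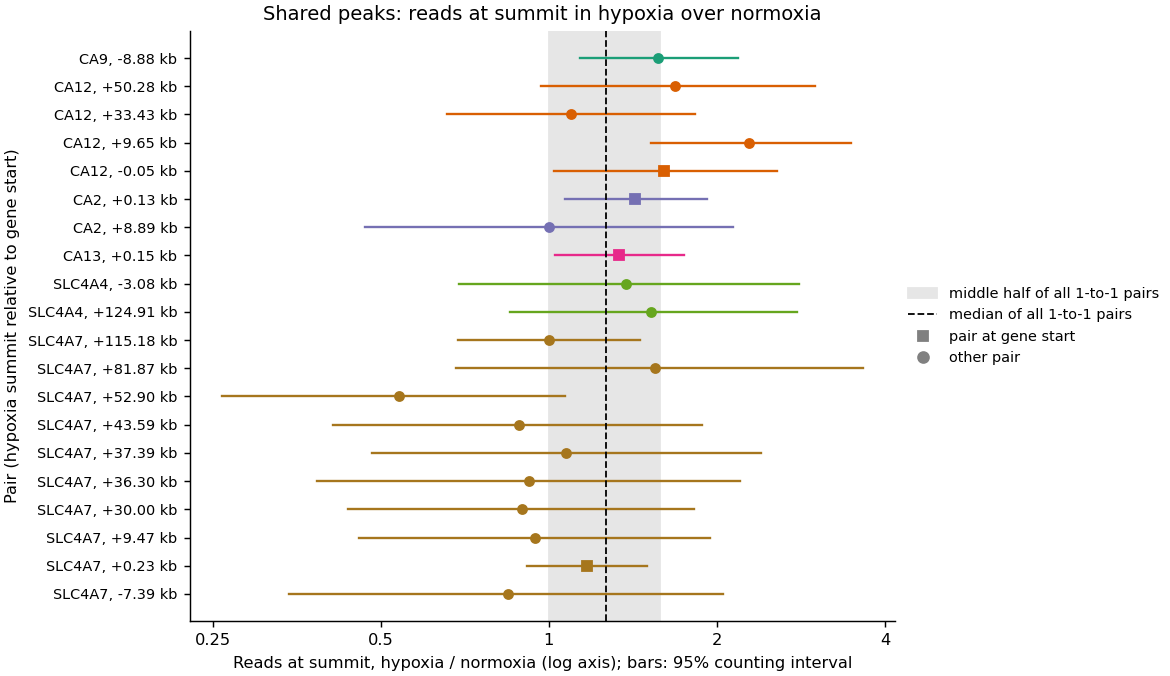
Ratio of reads at the summit, hypoxia over normoxia, for the 20 sites where 1 peak of each list met, on a log axis, with bars for the 95% counting interval and squares for gene starts. The dashed line is the median of all pairs, 1.27, and the shaded band their middle 50%. The CA12 start and the CA12 sites 9649 and 50279 bp into the gene lie right of the band. Most SLC4A7 sites lie left of the line.

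Other genes that handle acid, bicarbonate and lactate were, for the most part, marked at the start in both lists or in neither. Of 48 such genes, 26 carried a start peak in both lists, 5 in hypoxia alone, none in normoxia alone and 17 in neither. Of all genes with a known strand, 68.4% were marked in both lists, 9.81% in hypoxia alone and 20.9% in neither. For 16 of the 48 genes the strand was not given and a peak at either end was counted. By that rule 69.3% of all genes were marked in both lists and 11.7% in hypoxia alone. The 48 genes were thus marked in both lists less often than genes at large. The window held more hypoxia than normoxia peaks for 43 of the 48, a share of 89.6% beside the 79% of all genes. In sum they held 498 hypoxia and 253 normoxia peaks, a ratio of 1.97, under the 2.15 of the whole lists. These genes were listed with earlier results of the same libraries known.

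The 5 marked in hypoxia alone were CA8, CA7, CA10, ATP6V0A4 and GPR4. CA8, a relative of the carbonic anhydrases without catalytic activity, had a strong hypoxia peak of 36 reads at a gene end, with a fold of 5.96. CA7, a cytosolic enzyme, had 29 reads, and CA10, another inactive relative, 12 reads. ATP6V0A4, a subunit of the proton-pumping ATPase, had 19 reads, and GPR4, a proton-sensing receptor, had 20 reads. None of these 4 peaks was strong. All 11 other carbonic anhydrase genes and all 8 other SLC4 genes had more hypoxia than normoxia peaks in the window, as did 79% of all genes. The sums were 77 hypoxia and 37 normoxia peaks for the carbonic anhydrases, a ratio of 2.08. For the SLC4 genes they were 65 hypoxia and 34 normoxia peaks, a ratio of 1.91. Both ratios are under the 2.15 of the whole lists.

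The lactate transporter genes SLC16A3 and SLC16A1 and their partner BSG were marked in both conditions. SLC16A3, which encodes the lactate exporter MCT4, had 381 reads at its start in hypoxia and 265 in normoxia. SLC16A1, which encodes the lactate transporter MCT1, had 237 reads at a gene end in hypoxia and 210 in normoxia. BSG, which encodes the chaperone of both lactate transporters, had 71 reads in hypoxia and 38 in normoxia. The BSG normoxia peak was weak, with a fold of 1.83 and 1.95 as −log10 q-value. The windows held 10 hypoxia and 7 normoxia peaks for SLC16A3, 19 hypoxia and 8 normoxia for SLC16A1, and 4 of each for BSG. A start marked in both lists was common, at 68.4% of genes with a known strand and 69.3% of all genes by the either-end rule.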

How the data were processed

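H4K5ac ChIP-seq peaks from 1 hypoxia and 1 normoxia library were compared. Reads were single-end and 75 bp long, per the labels' protocols. Per the submitters' processing notes, MACS2 and SICER were used on hg38; their versions, their settings and a control library, if any, were not given in the sources used here. The authors deposited 1 peak list per library, with a whole-number score, a fold enrichment (a ratio to the library's own local background), a summit, a p-value and a q-value, both as −log10. Read totals are unknown.

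Folds and q-values of single peaks were compared only within their own list. The same q-value limits were applied to both lists, to pick strong peaks and in the recomputations with such a limit. The resulting numbers of peaks were set side by side with no allowance for library depth. Pileup and background were solved from fold and p-value, with fold as (pileup + 1) / (background + 1) and p as a Poisson tail; pileups came out whole within 0.02 reads for 100.0% of normoxia and 99.999% of hypoxia peaks. Pileups depend on depth and fragment length, which are not known for either library; the narrowest peaks were 215 bp in hypoxia and 245 bp in normoxia.

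Overlap means at least 1 bp. Gene spans, strands and start sites came from RefSeq tables of GRCh38.p14, and all 6 genes matched. A start was marked by a peak within 1 kb; without a strand, either end counted. A strong peak has a −log10 q-value of at least 10. Intervals are 95% exact binomial ones and cover counting error only; peaks are not replicates and no p-values of the comparison are given. The genes and lists were chosen with earlier results of these data known. All 6 genes are named, as are other pathway genes marked at the start in hypoxia alone and 4 preset exporters. Exons, introns and sequence outside start windows were not analysed here. Scripts used Python 3.11.15, pandas 2.3.3 and scipy 1.17.1 and were tested on simulated peaks.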

Additional observations from a re-analysis of the deposited data

How the results depend on the processing

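Across 84 recomputations, 65 values remained inside their interval or 1.5 times the count, 14 moved and 5 changed direction. The intervals of single genes are wide, as for CA9 at 0.226 to 9.10, so a value inside one says little. The CA13 ratio of 1.33 at equal list length counted as inside, against 4.33 with the full lists. With the hypoxia list limited to the normoxia length, the ratio over the 6 genes was 0.917, that of CA2 0.80 and that of SLC4A7 0.50; the windows held 33 hypoxia peaks, 51.5% of them overlapped, with a median width of 436 bp. Where peaks of both lists needed 5 or more as −log10 q-value, the windows held 33 hypoxia and 15 normoxia peaks (CA9 3 of each). The ratio over the 6 genes was 2.2, against 2.26 for the whole lists at that limit, and 93.3% of the normoxia peaks were overlapped. The order of the genes changed: CA2 had the highest ratio, 4.0 (4 hypoxia peaks and 1 normoxia peak), and CA13 had 2.0. Where peaks needed 10 or more, the windows held 15 hypoxia and 11 normoxia peaks. That ratio was 1.36, against 1.63 for the whole lists at that limit. Of these peaks, 66.7% of the hypoxia and 90.9% of the normoxia ones were overlapped, with median widths of 886 bp in hypoxia and 866 bp in normoxia. At this limit the ratio was 0.667 for both CA9 and SLC4A7. CA9 was no longer marked at its start, leaving 0 genes marked in hypoxia alone. The shorter lists are these alternatives' own construction, and no other cause was tested. Overlap shares and widths of the whole lists were not computed for these shorter lists, so none can be set beside the values given here. Start windows of 500 bp or 2 kb, any RefSeq start site (chosen after seeing the data; it adds SLC4A4 to the genes marked in both), joined peaks and a stricter overlap left the totals and shares over the 6 genes within these limits. With peaks within 500 bp joined, CA2 had 5 peaks in each list, so numbers were no longer higher in hypoxia for all 6 genes, and CA9 had 4 hypoxia and 2 normoxia peaks, a ratio of 2.0. Ratios against 0 normoxia peaks (CA9 span alone, SLC4A4 strong peaks) were not computed. No paired analysis was possible because each condition has 1 library.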

Other observations

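Beyond the 6 genes, some pH-handling genes had unequal peak numbers, and are named here after their values were seen. SLC9A3, a sodium proton exchanger gene on chromosome 5 (470456 to 524449), had 20 hypoxia and 3 normoxia peaks in its window, and no peak at its start in either list. CA10 had 14 hypoxia and 2 normoxia peaks, none of which overlapped the other list. Over the whole lists, 32.7% of hypoxia and 68.7% of normoxia peaks were overlapped. The window numbers ran the other way for 2 of 48 genes, as they did for 5.86% of all genes. SLC9A7, an organellar sodium proton exchanger gene, had 7 hypoxia and 11 normoxia peaks. EMB, which encodes a chaperone of lactate transporters, had 4 hypoxia and 6 normoxia peaks. No explanation of these numbers was tested.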
